A study of Mus musculus with 9 samples.

Results

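Cytochrome P450 genes were examined in whole orthotopic Hepa1-6 tumors of C57BL/6 mice. Hepa1-6 is a mouse hepatoma line that is placed in the liver, so each tumor grew inside normal liver and the tissue around it was cut away before RNA was taken. Members were chosen by name, as every gene called Cyp followed by a number, 1 letter and a number, with Cyp51 added. No expression value entered this rule, but the family was chosen with earlier results of these data known. This rule found 95 of 52163 named genes. Names with a further letter, such as Cyp4a12a and Cyp3a41a, fall outside it. Because the assembly in each tumor could merge neighboring genes, genes that shared an entry in any tumor were joined, and the 95 genes formed 76 loci of 48254 loci in all. A locus of several P450 genes, such as that of Cyp2d10, Cyp2d11, Cyp2d13, Cyp2d26, Cyp2d34 and Cyp2d40, has 1 value, and its genes cannot be told apart.

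The 3 groups held 3 tumors each, 1 per mouse. Mice received PBS or anti-PD-1 antibody, which blocks a checkpoint receptor on T cells, by intraperitoneal injection every 4 days for 5 injections. Among the antibody-treated tumors, size set the group, large tumors being called nonresponsive and small tumors responsive, so response and tumor size cannot be told apart in these groups, and intermediate tumors were not sequenced. Nothing in the labels gives the mice a sex or an age, but the paper states that the mice of this tumor model were male. Each value is an FPKM estimate (fragments per kilobase of transcript and per unit of mapped fragments), which is scaled for transcript length and can be compared between genes.

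P450 enzymes are heme proteins that insert oxygen into their substrates with electrons from partner proteins, cytochrome P450 reductase in the endoplasmic reticulum and ferredoxin in mitochondria. Families 1 to 3 act mainly on drugs, toxins and steroids, family 4 on fatty acids and eicosanoids, and other families on cholesterol, bile acids, retinoids, vitamin D and steroid hormones. The liver has the highest levels of most of them, hepatocytes are their main source, and several, Cyp2e1 and Cyp1a2 among them, are concentrated in the hepatocytes around the central vein. Liver tumors often lose them.

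The stretches of 250 bases before the RefSeq start of 5 genes are shown because these genes span the pattern described below, with 4 whose level was higher in responsive tumors than in nonresponsive tumors and Cyp20a1, which was not. The coordinates are those of RefSeq on GRCm38.p6, namely chr7:140763569-140763818 on the plus strand for Cyp2e1, chr7:26835089-26835338 on the plus strand for Cyp2a5, chr19:39286835-39287084 on the plus strand for Cyp2c29, chr9:121916306-121916555 on the minus strand for Cyp8b1 and chr1:60343050-60343299 on the plus strand for Cyp20a1. Capitals mark TATAAA (the TATA box), CAAAGTCCA (a motif of the hepatocyte factor HNF4A), AGGTCA (a nuclear receptor motif) and GCGTG or its reverse complement CACGC (the core of the aryl hydrocarbon receptor site). Each line reads 5′ to 3′ along the gene and ends at the base before the start.
Cyp2e1: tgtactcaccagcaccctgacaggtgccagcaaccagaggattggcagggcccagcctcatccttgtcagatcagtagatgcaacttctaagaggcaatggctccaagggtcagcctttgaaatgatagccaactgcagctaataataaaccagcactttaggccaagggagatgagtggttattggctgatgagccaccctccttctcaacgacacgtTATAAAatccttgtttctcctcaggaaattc
Cyp2a5: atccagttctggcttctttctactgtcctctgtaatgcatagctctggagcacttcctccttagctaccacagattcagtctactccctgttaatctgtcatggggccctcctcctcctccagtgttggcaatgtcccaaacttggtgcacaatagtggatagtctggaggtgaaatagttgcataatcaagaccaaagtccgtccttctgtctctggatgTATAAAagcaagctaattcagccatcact
Cyp2c29: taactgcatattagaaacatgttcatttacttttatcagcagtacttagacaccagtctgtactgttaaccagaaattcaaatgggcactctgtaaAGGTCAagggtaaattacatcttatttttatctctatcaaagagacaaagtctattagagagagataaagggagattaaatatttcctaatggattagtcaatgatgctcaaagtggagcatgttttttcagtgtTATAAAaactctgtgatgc
Cyp8b1: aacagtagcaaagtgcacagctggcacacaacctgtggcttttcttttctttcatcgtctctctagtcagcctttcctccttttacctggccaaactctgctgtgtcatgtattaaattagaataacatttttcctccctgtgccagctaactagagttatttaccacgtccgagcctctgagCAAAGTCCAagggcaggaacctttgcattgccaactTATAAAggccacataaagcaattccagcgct
Cyp20a1: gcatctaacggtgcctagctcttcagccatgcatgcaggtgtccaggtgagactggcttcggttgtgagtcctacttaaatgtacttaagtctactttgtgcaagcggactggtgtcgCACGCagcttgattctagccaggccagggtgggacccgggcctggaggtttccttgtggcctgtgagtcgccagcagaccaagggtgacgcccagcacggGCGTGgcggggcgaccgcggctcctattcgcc

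In these windows TATAAA began 31 bases before the start of Cyp2e1, 31 before that of Cyp8b1, 29 before that of Cyp2a5 and 19 before that of Cyp2c29. Cyp8b1 also held CAAAGTCCA at 67 bases before its start, and Cyp2c29 held AGGTCA at 154. The window of Cyp20a1 held none of these 3 motifs (TATAAA, CAAAGTCCA and AGGTCA) and had GCGTG or its reverse complement at 32 and at 132 bases before the start. Of the 95 genes, 73 had a RefSeq window. On either strand, TATAAA was in the windows of 27 of the 73 genes, or 37.0%, against 12.4% of all 32851 windows of the same length. CAAAGTCCA was in 9 genes, or 12.3%, against 0.384% of all windows, in Cyp2c40, Cyp2c65, Cyp2c67, Cyp2c68, Cyp2c69, Cyp2c70, Cyp3a11, Cyp3a16 and Cyp8b1. AGGTCA was in 24.7% of the genes against 14.0% of all windows, and GCGTG in 20.5% against 28.2%. Many holders are close paralogs with alike sequence, so these shares describe the family and were not tested. A match is a run of letters and not a measured site.

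Some tumors stood apart in ways that touch these values. PBS tumor 1 had the lowest level of liver transcripts outside the P450 family, with a mean log2(FPKM + 1) of 4.04 over 20 hepatocyte loci against 6.68 to 9.39 in the other 8 tumors. Nonresponsive tumor 2 held pancreatic acinar transcripts at a summed 1080 FPKM over 6 genes, which stayed under 0.4 in every other tumor. Nonresponsive tumor 3 had the highest skeletal muscle level, with a mean log2 of 5.65 over 5 genes against 1.50 to 4.22 elsewhere. Entries that named no gene were left out. They took 19.2% to 81.5% of the FPKM of a tumor in PBS, 70.4% to 73.2% in nonresponsive tumors and 21.0% to 55.1% in responsive tumors. This share thus did not overlap between nonresponsive and responsive tumors, and what set it apart was not tested. Pairs of tumors correlated at 0.884 or more, and no pair looked like a repeat deposit of 1 library.

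The sum of all P450 FPKM was 178 in PBS tumor 1, 882 in PBS tumor 2 and 870 in PBS tumor 3. It was 1916, 1073 and 607 in nonresponsive tumors 1, 2 and 3. It was 4133, 2033 and 2725 in responsive tumors 1, 2 and 3. The 3 responsive tumors had the 3 largest sums, although responsive tumor 2 lay close above nonresponsive tumor 1, and the nonresponsive and PBS tumors overlapped. As a share of the FPKM of all named genes the P450s took 0.0260% to 0.125% in PBS, 0.0872% to 0.268% in nonresponsive tumors and 0.266% to 0.521% in responsive tumors, where the lowest responsive share lay just under the highest nonresponsive share.

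**Figure D1:**
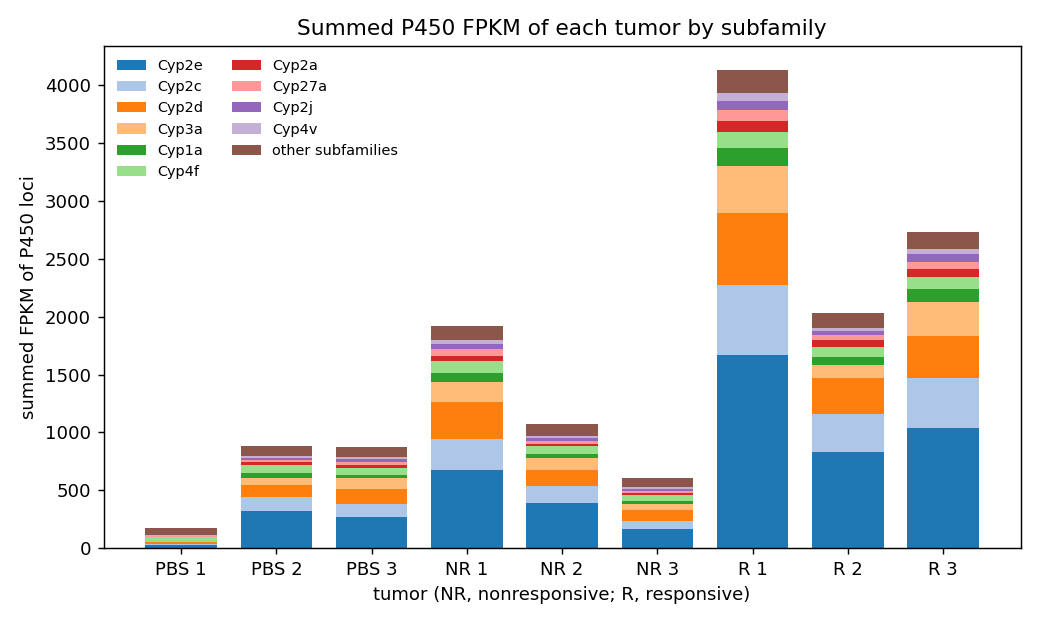
Summed FPKM of the P450 loci (vertical axis) in each of the 9 tumors (horizontal axis), stacked by subfamily. The responsive tumors reach 4133, 2033 and 2729 and PBS tumor 1 reaches 178, with Cyp2e the largest block in every tumor except PBS tumor 1.

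A few subfamilies made up most of each sum. Cyp2e1 alone gave 38.1% to 41.0% of the P450 sum in responsive tumors, 27.6% to 36.2% in nonresponsive tumors and 13.3% to 36.1% in PBS tumors. The Cyp2c loci gave 14.5% to 16.1% in responsive tumors, 11.6% to 13.9% in nonresponsive tumors and 6.58% to 14.0% in PBS tumors. The shares of both were thus higher in every responsive tumor than in every other tumor. Cyp2d, at 13.4% to 15.4% in responsive and 12.4% to 16.5% in nonresponsive tumors, and Cyp3a, at 5.16% to 10.6% and 8.67% to 9.73%, overlapped between these groups. The shares of Cyp4f, Cyp51, Cyp20a and Cyp1b were on average lower in responsive tumors, with Cyp4f at 3.35% to 3.93% in responsive, 5.64% to 8.76% in nonresponsive tumors and 6.85% to 22.1% in PBS tumors. In PBS tumor 1, where the sum was smallest, Cyp4f at 22.1% and Cyp20a1 at 12.8% were large parts of it. The shares in a tumor add to a whole, so a rise of Cyp2e1 lowers the others.

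Of the 76 loci, 16 were listed at 0 in all 9 tumors, among them Cyp11b1 and Cyp11b2 of adrenal steroid synthesis, Cyp19a1 (aromatase) and Cyp24a1, which breaks down vitamin D. A further 18 loci were above 0 somewhere but never reached FPKM 1. The drug-inducible genes Cyp1a1, a target of the aryl hydrocarbon receptor, and Cyp2b10, a target of the constitutive androstane receptor, were among these, with highest values of 0.159 and 0.185 in any tumor. The remaining 42 reached 1. Loci were tested where at least 3 of the 6 tumors of a comparison had FPKM of 1 or more, which kept 40 loci with 59 genes in the comparisons of responsive tumors and 38 loci with 57 genes in that of nonresponsive with PBS. Cyp2c55 and Cyp4a14 reached 1 in 1 responsive tumor each, at 1.15 and 2.09, and were not tested. Cyp2u1, in both comparisons of responsive tumors, and Cyp2c38, in that with PBS, met the filter only through the responsive tumors. Their separation there follows from the filter, and they are included in the counts below.

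The comparison of responsive with nonresponsive tumors asks how antibody-treated tumors of opposite outcome differ. P450 levels were higher in responsive tumors for most loci tested. By role, 17 of 23 loci of the xenobiotic families passed, 3 of 7 of family 4, 2 of 6 of bile acid and cholesterol metabolism and 1 of 3 of vitamins A and D. Of the 40 loci, 23 were higher at an unadjusted p under 0.05, or 57.5%, and 0 were lower. Over all loci tested, 4.36% were higher and 1.56% lower by the same rule. In 18 loci every responsive tumor exceeded every nonresponsive tumor (5.69% of all loci), and in 0 the reverse held (4.78% of all loci). The mean was higher in 36 of 40 (41.8% of all loci), and the median log2 difference was 1.06 against -0.07 over all loci. By limma with Benjamini-Hochberg adjustment over all loci, 0 P450 loci passed an adjusted p of 0.05, with 0.564 the smallest, while 0.0629% of all loci passed. Without responsive tumor 1 the count of higher loci was 9, without responsive tumor 3 it was 12, and without nonresponsive tumor 2 or 3 it was 11. Fitted together with the PBS tumors it was 11, and with variances not shared between genes it was 14.

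Cyp2e1, which oxidizes ethanol, acetone and acetaminophen, was the most abundant P450. Its FPKM was 23.7, 319 and 273 in PBS tumors 1 to 3, 678, 390 and 168 in nonresponsive tumors 1 to 3, and 1673, 833 and 1039 in responsive tumors 1 to 3. The responsive tumors lay above all others, and the nonresponsive tumors overlapped with PBS. The means were 205 ± 159, 412 ± 256 and 1182 ± 438 (SD, n = 3 tumors each). The log2 difference between responsive and nonresponsive tumors was 1.67 ± 0.56 (SE; limma unadjusted p = 0.0241), and the exact permutation test gave 0.1, two-sided, the smallest p that 3 against 3 tumors allow.

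**Figure D2:**
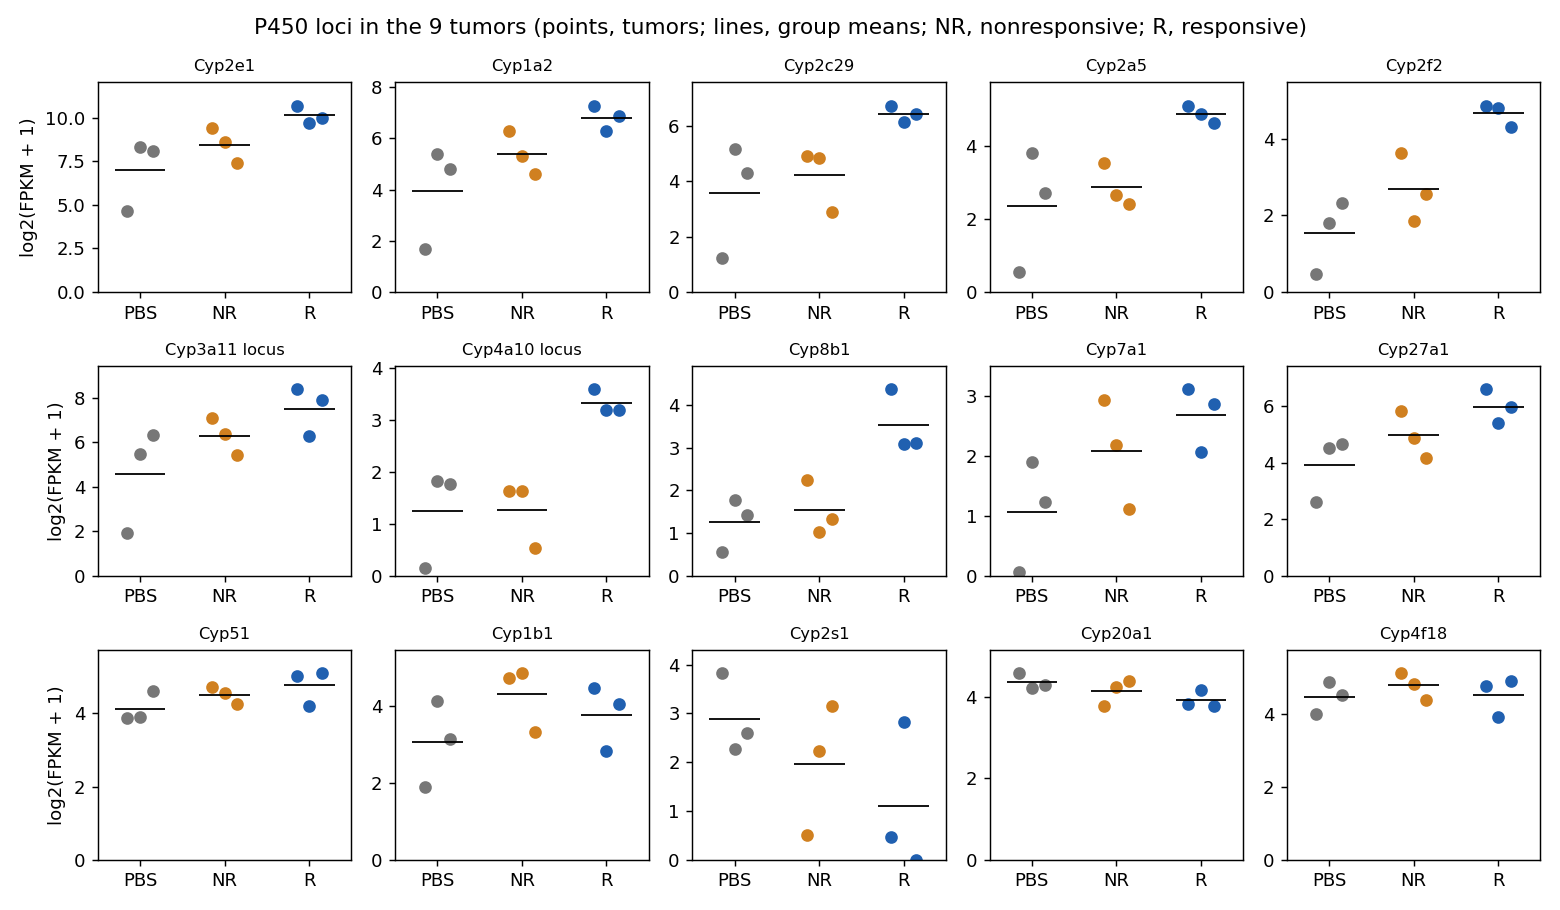
Level of 15 P450 loci on a log2(FPKM + 1) scale (vertical axes, each starting at 0) in PBS, nonresponsive (NR) and responsive (R) tumors, with points for tumors 1 to 3 from left to right and lines for group means. Responsive tumors lie above all others for Cyp2e1, Cyp2c29, Cyp2a5, Cyp2f2, Cyp8b1 and the Cyp4a10 locus, and overlap with the others for Cyp7a1, Cyp51, Cyp1b1, Cyp2s1 and Cyp4f18.

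The Cyp2c subfamily, epoxygenases and drug hydroxylases, had summed means of 82.0 ± 61.3 in PBS, 162 ± 97.9 in nonresponsive tumors and 452 ± 136 in responsive tumors (SD, n = 3). Cyp2c29, an arachidonic acid epoxygenase, had the largest difference of all P450 loci between responsive and nonresponsive tumors, at 2.22 ± 0.57 on the log2 scale (SE; limma unadjusted p = 0.00725). Its FPKM was 29.0, 27.2 and 6.36 in nonresponsive tumors and 105, 69.8 and 83.7 in responsive tumors, with no overlap. Cyp2c54 was next in the subfamily, with 11.4, 9.69 and 2.79 FPKM in nonresponsive tumors and 41.7, 26.5 and 29.7 in responsive tumors, again without overlap. Its log2 difference was 2.05 ± 0.48. Cyp2c37 with Cyp2c50, the most abundant Cyp2c locus, was at 69.1, 43.4 and 18.5 FPKM in nonresponsive tumors and 178, 83.4 and 133 in responsive tumors, a log2 difference of 1.69 ± 0.53 with the groups apart. The locus of Cyp2c40, Cyp2c67, Cyp2c68 and Cyp2c69 gave the same size of difference, 1.69 ± 0.48. Cyp2c70, which makes the muricholic acids that mark mouse bile, did not pass the threshold at 0.96 ± 0.53 (limma unadjusted p = 0.118), since nonresponsive tumor 1, at 92.1 FPKM, exceeded 2 of the 3 responsive tumors, at 138, 61.3 and 87.6.

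Among the other xenobiotic P450s, Cyp2a5, the coumarin hydroxylase, had the smallest p of the family in this comparison (limma unadjusted p = 0.000798). Its FPKM was 10.5, 5.35 and 4.33 in nonresponsive tumors and 33.6, 28.3 and 23.8 in responsive tumors, a log2 difference of 2.00 ± 0.33 (SE), with the lowest responsive tumor well above the highest nonresponsive tumor. Cyp2f2, which oxidizes naphthalene and in liver is strongest in periportal hepatocytes, was at 11.3, 2.61 and 4.87 FPKM in nonresponsive tumors and 28.0, 27.0 and 18.9 in responsive tumors, a log2 difference of 1.98 ± 0.46. Cyp1a2, which oxidizes caffeine and aromatic amines and is a pericentral enzyme, was at 77.7, 38.5 and 23.2 FPKM in nonresponsive tumors and 154, 76.1 and 117 in responsive tumors. It passed the threshold at 1.41 ± 0.49 (limma unadjusted p = 0.0261), although responsive tumor 2 lay just under nonresponsive tumor 1. A pericentral and a periportal P450 thus were both higher.

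The Cyp2d10 locus, second to Cyp2e1 in mean level, was at 181, 85.7 and 56.0 FPKM in nonresponsive tumors and 350, 193 and 225 in responsive tumors. The groups did not overlap, and the log2 difference was 1.36 ± 0.47 (SE). The locus of Cyp2d12 and Cyp2d9, where Cyp2d9 is a steroid hydroxylase, had a like difference of 1.40 ± 0.56, but its groups overlapped. The same 2 tumors, nonresponsive tumor 1 and responsive tumor 2, crossed in each of the 5 loci that passed the threshold with overlapping groups, namely Cyp1a2, the Cyp2d12 locus, the locus of Cyp2j5, Cyp2j6 and Cyp2j9, Cyp4v3 and Cyp4f14. Cyp3a11 with Cyp3a16, the main steroid and drug hydroxylase locus of the Cyp3a subfamily, also holds Cyp3a41a and Cyp3a41b. It was at 136, 81.3 and 42.0 FPKM in nonresponsive tumors and 330, 75.7 and 240.1 in responsive tumors, and did not pass at 1.22 ± 0.66 (limma unadjusted p = 0.114). Responsive tumor 2 was the low sample there. Cyp3a13 passed, at 1.29 ± 0.39.

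Of 7 family 4 loci tested, 3 were higher in responsive tumors than in nonresponsive tumors (4.36% of all loci) and 0 were lower (1.56%). Their median log2 difference was 0.54. The locus of Cyp4a10, Cyp4a31 and Cyp4a32, omega-hydroxylases of fatty acids and known targets of the nuclear receptor PPARalpha, was at 2.12, 2.11 and 0.441 FPKM in nonresponsive tumors and 11.0, 8.11 and 8.19 in responsive tumors. PBS tumors were at 0.112, 2.57 and 2.41. The 3 responsive tumors stood clear of the other 6, which did not separate by treatment. The log2 difference was 2.06 ± 0.36 against nonresponsive tumors (SE; limma unadjusted p = 0.00106), 2.07 ± 0.48 against PBS, and 0.01 ± 0.57 between nonresponsive and PBS tumors. The locus of Cyp4v3, a fatty acid hydroxylase, which also holds the plasma kallikrein gene Klkb1 and cannot be read as Cyp4v3 alone, and Cyp4f14, which acts on leukotrienes and vitamin K, were the others to pass, at 1.12 ± 0.43 and 1.36 ± 0.55. The locus of Cyp4f15, Cyp4f16, Cyp4f17, Cyp4f37 and Cyp4f40 was at 16.1 to 23.7 FPKM in nonresponsive tumors and 21.9 to 32.5 in responsive tumors, with a difference of 0.38 ± 0.25 that did not pass. Cyp4f18, the leukotriene B4 hydroxylase of neutrophils, was at 20.1 to 33.8 and 14.1 to 29.1 FPKM, with a difference of -0.25 ± 0.34.

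Of 6 bile acid and cholesterol loci tested, 2 were higher (4.36% of all loci), Cyp8b1 and Cyp39a1. Cyp8b1, the sterol hydroxylase needed for cholic acid, was at 0.476, 2.40 and 1.70 FPKM in PBS, 3.71, 1.05 and 1.51 in nonresponsive tumors and 19.5, 7.54 and 7.57 in responsive tumors. The lowest responsive tumor lay well above the highest other tumor. The log2 difference from nonresponsive tumors was 1.98 ± 0.48 (SE; limma unadjusted p = 0.00536). Cyp7a1, the rate-limiting enzyme of the classical bile acid pathway, was at 6.64, 3.57 and 1.18 FPKM in nonresponsive tumors and 7.64, 3.21 and 6.28 in responsive tumors. These groups overlapped, at 0.60 ± 0.52 (limma unadjusted p = 0.290). Cyp27a1, the mitochondrial enzyme of the alternative pathway, was at 56.6, 28.6 and 17.0 FPKM in nonresponsive tumors and 95.8, 41.4 and 61.6 in responsive tumors, at 1.02 ± 0.50 (limma unadjusted p = 0.0863). Cyp7b1, which hydroxylates oxysterols downstream of Cyp27a1, stood at 0.72 ± 0.50. Cyp51, the lanosterol demethylase of cholesterol synthesis, overlapped across the groups, with 13.7 to 23.3 FPKM in PBS, 18.1 to 25.5 in nonresponsive tumors and 17.4 to 33.2 in responsive tumors and differences of 0.26 ± 0.30 from nonresponsive tumors and 0.64 ± 0.33 from PBS, neither of which passed.

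Of the vitamin A and D enzymes, Cyp26b1, which clears retinoic acid, was higher at 0.65 ± 0.23, from 2.71, 2.43 and 1.51 FPKM in nonresponsive to 3.73, 4.16 and 4.03 in responsive tumors. Its relative Cyp26a1, at 2.30, 3.72 and 0.904 against 8.12, 2.29 and 5.95, overlapped and did not pass. Cyp2r1, which hydroxylates vitamin D in liver, had 2.67 to 2.80 FPKM in nonresponsive tumors and 2.35 to 5.65 in responsive tumors. None of the 6 steroid hormone loci was tested, and the highest of them, Cyp11a1, was at 0.284 to 0.863 FPKM over the 9 tumors.

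The mean was lower in responsive tumors than in nonresponsive tumors for 4 loci, and none of the 4 passed the threshold. Cyp20a1, an orphan P450 with no settled substrate, was at 12.7, 17.8 and 19.9 FPKM in nonresponsive tumors and 13.1, 16.9 and 12.7 in responsive tumors, a log2 difference of -0.21 ± 0.24. Cyp1b1, which oxidizes estrogens and aromatic hydrocarbons and is known mostly from cells other than hepatocytes, was at 25.8, 27.9 and 8.95 against 21.1, 6.07 and 15.5, at -0.53 ± 0.58. Cyp2s1, known from epithelia outside the liver, was at 0.422, 3.67 and 7.87 against 0.370, 6.08 and a listed 0, at -0.87 ± 0.95. Cyp4f18 was the other.

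**Figure D3:**
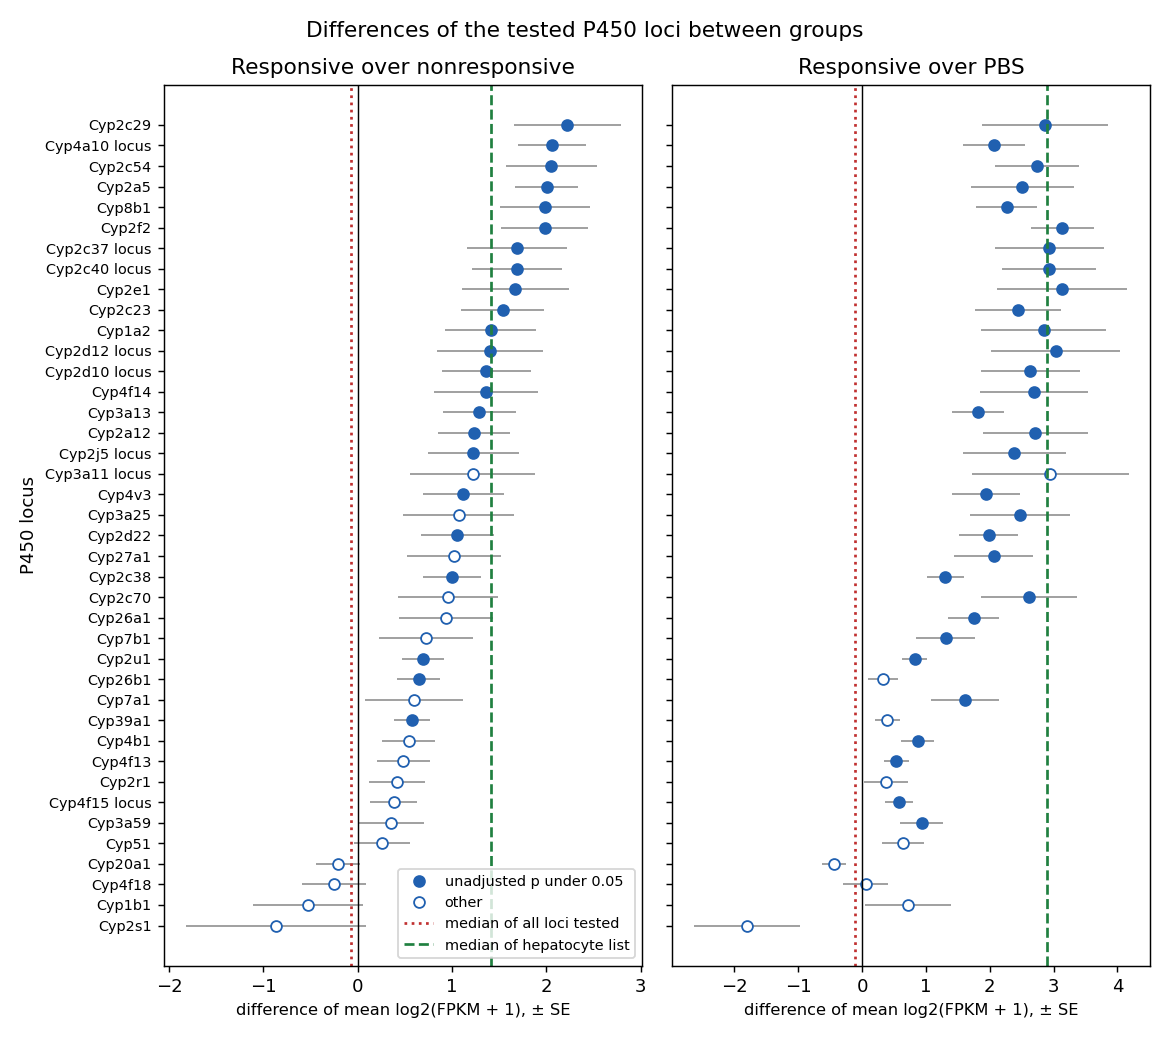
Difference of mean log2(FPKM + 1) with its standard error (horizontal axes) for the 40 tested P450 loci (vertical axis, the same order in both panels), responsive minus nonresponsive at left and responsive minus PBS at right, filled where the unadjusted limma p was under 0.05. Most loci lie between the median of all loci tested (dotted line, -0.07 and -0.11) and the median of the hepatocyte list (dashed line, 1.42 and 2.89), and 23 points at left and 31 at right are filled.

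The comparison of responsive with PBS tumors shares the responsive tumors with the one above, so its values are given beside those and not as a second line of evidence. Here 31 of 40 P450 loci were higher, or 77.5%, and 0 were lower, where 9.12% of all loci were higher and 10.0% lower. All 3 responsive tumors exceeded all 3 PBS tumors in 32 loci (11.8% of all loci), and the reverse held in 1, Cyp20a1 (17.0% of all loci). The median log2 difference was 2.02, against -0.11 over all loci. By limma with Benjamini-Hochberg adjustment 0 P450 loci passed 0.05, with 0.243 the smallest, and 0.149% of all loci passed. Without responsive tumor 1 the count of higher loci was 16, and without PBS tumor 1 it was 27 with a median of 1.50. Over all 12715 loci tested the higher count was 1159, and it was 620 and 843 in these fits.

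The largest differences from PBS were those of Cyp2f2, at 3.13 ± 0.49 (SE; limma unadjusted p = 0.000728), and Cyp2e1, at 3.13 ± 1.02 (limma unadjusted p = 0.0222). Cyp2f2 was at 0.376, 2.49 and 3.99 FPKM in PBS tumors, which lay far under the 18.9 of the lowest responsive tumor. Its standard error was less than that of Cyp2e1, whose PBS tumor 1 was far under PBS tumors 2 and 3. The Cyp2d12 locus, at 3.03 ± 1.01, the Cyp2c37 locus, at 2.93 ± 0.86, and the Cyp2c40 locus, at 2.93 ± 0.74, came next among those that passed. Cyp3a11 with Cyp3a16, at 2.95 ± 1.23, did not pass (limma unadjusted p = 0.0541). Of the bile acid loci 4 of 6 passed, Cyp7a1 among them at 1.61 ± 0.53, and of the family 4 loci 6 of 7 passed (9.12% of all loci). Cyp26a1 passed at 1.75 ± 0.40, whereas Cyp26b1 and Cyp39a1, which had passed against nonresponsive tumors, did not pass against PBS at 0.33 ± 0.24 and 0.40 ± 0.19. Cyp20a1 was at 22.8, 17.7 and 18.4 FPKM in PBS and 13.1, 16.9 and 12.7 in responsive tumors, at -0.44 ± 0.18 (limma unadjusted p = 0.0559). Cyp2s1 stood at -1.80 ± 0.83 (limma unadjusted p = 0.0726), with PBS tumors at 13.1, 3.80 and 5.05 FPKM.

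Between nonresponsive and PBS tumors 0 of 38 P450 loci were higher and 0 lower at an unadjusted p under 0.05 by limma, where 1.57% of all loci were higher and 1.66% lower. The smallest unadjusted p was 0.0700, for Cyp26a1. The count was 0 in both directions also with unshared variances and with all 9 tumors in 1 fit. No P450 locus separated the groups in either direction (3.23% and 4.86% of all loci), and 0 passed after adjustment (0.0395% of all loci). The mean was nevertheless higher in nonresponsive tumors for 33 of 38 loci (44.4% of all loci). The median log2 difference was 0.81 against -0.06 over all loci. Without PBS tumor 1 this median was 0.27. Cyp2e1, at 1.46 ± 1.09, and Cyp3a11 with Cyp3a16, at 1.73 ± 1.17, show how wide the errors were.

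Electron donors and partners of the P450s differed less. Por, the reductase that serves all microsomal P450s, was nearly level, with 46.5 to 50.3 FPKM in PBS, 41.8 to 70.0 in nonresponsive tumors and 50.1 to 54.9 in responsive tumors and a log2 difference of 0.03 ± 0.24 between responsive and nonresponsive tumors. Of 8 partner genes tested 1 was higher in responsive tumors than in nonresponsive tumors, the heme-binding P450 partner Pgrmc1, at 0.97 ± 0.28 (SE; limma unadjusted p = 0.0136). By the same rule 4.36% of all loci were higher. The median of the 8 was 0.29. Cyb5a, the cytochrome b5 that feeds electrons to several P450s, was at 306, 185 and 108 FPKM in nonresponsive tumors and 510.0, 287 and 332 in responsive tumors, at 0.99 ± 0.44 (limma unadjusted p = 0.0628). Against PBS 5 of the 8 were higher (9.12% of all loci), with a median of 0.54.

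Of 8 genes of heme synthesis, only Cpox was higher in responsive tumors than in nonresponsive tumors (4.36% of all loci), at 0.60 ± 0.20, and the median was 0.10. Alas1, the rate-limiting enzyme of the pathway in liver, overlapped across the groups, with 45.6 to 199 FPKM in nonresponsive tumors and 66.2 to 139 in responsive tumors. Against PBS 1 of the 8 was higher, Cpox, and 1 lower, Urod, where 9.12% of all loci were higher and 10.0% lower. Counts this near the shares of all loci do not set the heme genes apart.

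Of 18 transcriptional regulators of P450 genes tested, 2 were higher in responsive tumors than in nonresponsive tumors and 0 lower, with a median of 0.62. Over all loci 4.36% were higher and 1.56% lower. Hnf4a, a nuclear receptor that keeps hepatocyte genes on, was at 23.7, 12.8 and 12.4 FPKM in nonresponsive tumors and 38.3, 24.7 and 39.0 in responsive tumors, with the groups apart and a difference of 1.05 ± 0.32 (SE; limma unadjusted p = 0.0167). Ppara, the fatty acid receptor, shares its locus with Ttc38 and was at 10.7, 7.40 and 4.27 against 20.5, 10.4 and 16.3, at 1.01 ± 0.38. Ahr, the receptor that induces Cyp1a1, was not separated, at 7.57, 18.5 and 26.3 against 8.36, 29.2 and 17.2. The PXR gene Nr1i2, at 0.85 ± 0.42, did not pass. The CAR gene Nr1i3 shares its locus with Apoa2, an abundant apolipoprotein gene, so its own level could not be read. Against PBS 12 of the 18 loci were higher (9.12% of all loci), with a median of 1.31. These 12 include the locus of Nr1i3 with Apoa2 and that of Nr1h3 with Madd, which cannot be read as the regulators alone.

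Hepatocyte genes outside the P450 family moved with the P450s. Of 20 hepatocyte loci tested, among them Alb, Apoa1, Ttr and Cps1, 10 were higher in responsive tumors than in nonresponsive tumors and 0 lower. The mean was higher in 20 (41.8% of all loci), and the median log2 difference was 1.42. Against PBS 19 of 20 were higher, with a median of 2.89, and between nonresponsive and PBS tumors 0 passed, with a median of 1.47. Over all loci 4.36% were higher against nonresponsive tumors and 9.12% against PBS. Their summed level was 854 to 8878 FPKM in PBS, 5953 to 19966 in nonresponsive tumors and 16528 to 35337 in responsive tumors. Alb was at 2678, 1490.0 and 885 FPKM in nonresponsive tumors and 5041, 2576 and 4396 in responsive tumors, so nonresponsive tumor 1 again lay above responsive tumor 2. Ranked by the mean log2 level of these loci, the 9 tumors stood in the same order as by summed P450 FPKM but for responsive tumor 2 and nonresponsive tumor 1, and PBS tumors 2 and 3, which changed places. Whole tumors were sequenced, and fewer cells of a type and less RNA per cell cannot be told apart in them.

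Pericentral and periportal markers outside the family were higher in part, 3 of 8 and 3 of 6 loci tested (4.36% of all loci), with medians of 0.74 and 1.30. Glul, the pericentral glutamine synthetase, was at 82.0 to 189 FPKM in nonresponsive tumors and 229 to 299 in responsive tumors. The mean was higher in 6 of 8 and 5 of 6 (41.8% of all loci). Within the pericentral list Lgr5, Rhbg and Axin2 stood at -0.45 ± 1.29, -0.20 ± 0.98 and 0.01 ± 1.47, and periportal Arg1 at -0.69 ± 0.63. Lgr5 and Axin2 were at 50.9 and 77.3 FPKM in PBS tumor 1, where Alb was lowest at 173. They were at 0.889 and 2.42 in responsive tumor 1, where Alb was highest at 5041. Responsive tumor 2 went the other way, at 36.7 and 83.3 with Alb at 2576. Whether Lgr5 and Axin2 report pericentral hepatocytes in these tumors was not tested. Against PBS the mean was higher in 4 of 8 pericentral and 6 of 6 periportal loci (41.6% of all loci). Of these loci 4 of 8 and 5 of 6 passed as higher (9.12% of all loci). The pericentral loci that passed were those of Glul, Oat, Slc1a2 and Gulo, at 1.28 ± 0.30, 1.00 ± 0.27, 2.16 ± 0.63 and 2.87 ± 1.06. Lgr5 at -1.94 ± 1.06 and Axin2 at -1.62 ± 1.12 did not pass. Markers of other cell types were mostly not higher against nonresponsive tumors. There 0 of 7 macrophage, 0 of 6 neutrophil, 0 of 6 fibroblast, 0 of 6 endothelial and 0 of 6 proliferation genes were higher (4.36% of all loci). Their medians were -0.34, -0.68, -0.60, -0.12 and -0.26. In lists this short, counts of 0 lie near the share of all loci. Within the endothelial list the liver sinusoidal genes Clec4g and Stab2 stood at 0.96 ± 0.57 and 0.79 ± 0.33, without passing, and against PBS Clec4g passed at 2.05 ± 0.70. Of 6 T cell genes 1 was higher (4.36% of all loci), with a median of 0.40. Against PBS the mean was higher in 7 of 7 macrophage, 6 of 6 endothelial and 6 of 6 T cell loci (41.6% of all loci). It was higher in 3 of 6 neutrophil, 3 of 6 fibroblast and 0 of 6 proliferation loci. Besides Clec4g, C1qa passed as higher at 0.63 ± 0.25 and the Ccnb1 locus as lower (9.12% and 10.0% of all loci). Of 5 fetal and tumor marker loci tested, 0 were higher and 1 lower against nonresponsive tumors (1.56% of all loci), with a median of -0.79. The lower locus was H19, at 17.6, 15.7 and 39.3 FPKM in nonresponsive tumors and 11.0, 3.52 and 3.01 in responsive tumors. Its log2 difference was -1.95 ± 0.54 (SE; limma unadjusted p = 0.0103). Afp, the fetal liver protein made by many hepatomas, varied within groups, at 0.321, 9.18 and 56.5 FPKM in nonresponsive tumors and 0.646, 53.9 and 4.40 in responsive tumors.

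When the mean log2 level of the hepatocyte list was added as a covariate in a fit of all 9 tumors, the P450 differences were smaller. The median log2 difference between responsive and nonresponsive tumors was then 0.16, against 1.06 in the same 9 tumors without the covariate. With it 10 of 40 loci were higher (2.89% of all loci), and without it 11 were, so the count fell mostly with the fit of 9 tumors and the size of the differences with the covariate. Those past the unadjusted threshold with the covariate were the Cyp4a10 locus at 1.33 ± 0.28 (SE; limma unadjusted p = 0.00183), Cyp8b1 at 1.37 ± 0.38, Cyp2f2 at 1.22 ± 0.39, Cyp2c54 at 1.02 ± 0.33, Cyp3a13, Cyp2c38, Cyp2u1, Cyp39a1, Cyp2c23 and the Cyp2c40 locus. Cyp2e1, Cyp1a2 and the Cyp2d10 locus did not pass, at 0.11, -0.04 and 0.13, and had not passed in the fit of 9 tumors without the covariate either (limma unadjusted p = 0.123, 0.162 and 0.109), where their differences were those given above. Cyp3a11 with Cyp3a16, which had passed in neither fit, was at -0.56. Cyp1b1 was lower at -1.39 ± 0.53 (limma unadjusted p = 0.0320). It was the 1 lower locus of the 40, where 875 of all 12716 loci tested were lower in this fit. Against PBS the covariate left 2 loci higher (1.01% of all loci), Cyp2f2 at 1.56 and Cyp2u1 at 0.76, with a median of 0.08. In both comparisons Cyp2u1 was tested only because the responsive tumors reached FPKM 1, so its result depends on the filter. The covariate is itself measured in these tumors and was higher in the responsive group, at 8.82 ± 0.54 against 7.46 ± 0.89 in nonresponsive tumors and 6.00 ± 1.71 in PBS tumors (SD, n = 3), so it takes up part of the group difference by construction.

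**Figure D4:**
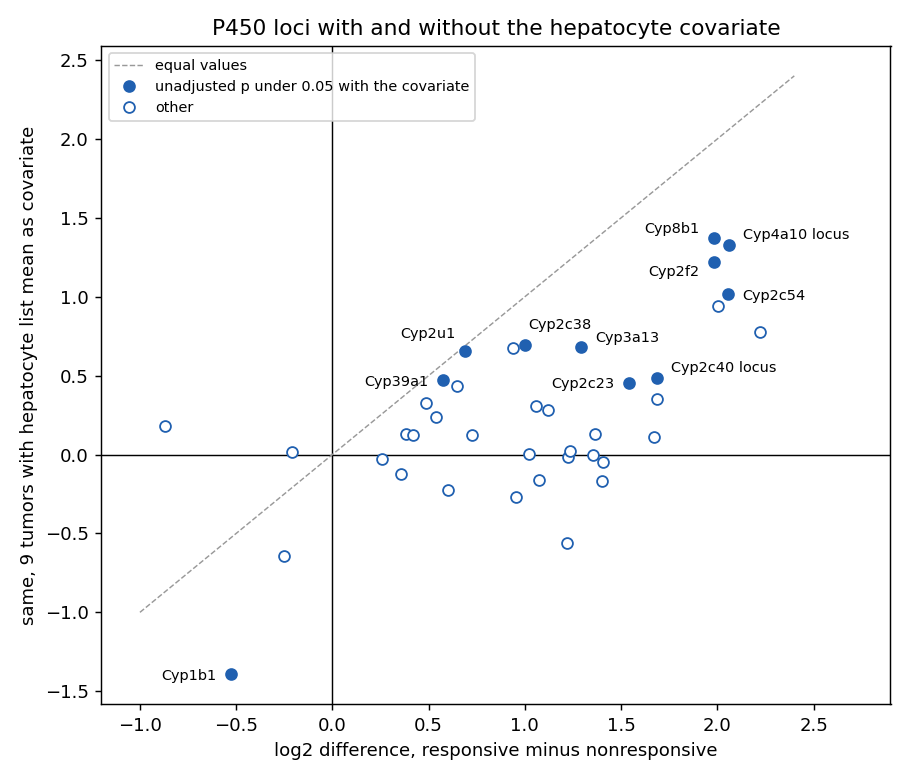
Log2 difference between responsive and nonresponsive tumors for the 40 tested P450 loci without a covariate (horizontal axis, 6 tumors) and with the mean log2 level of the hepatocyte list as covariate (vertical axis, 9 tumors), filled where the unadjusted limma p with the covariate was under 0.05. Most points fall under the dashed line of equal values, with the median going from 1.06 to 0.16, and the Cyp4a10 locus, Cyp8b1, Cyp2f2 and Cyp2c54 remain above 1.

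The motifs of the windows shown at the start can be counted by the result of the locus. Of 27 genes with a window in loci that were higher against nonresponsive tumors, 16 held TATAAA and 5 held CAAAGTCCA. Of the 19 other tested genes with a window the counts were 3 and 3. AGGTCA was in 3 of 27 and 4 of 19, and GCGTG in 4 of 27 and 4 of 19. The counts rest on families of paralogs that share sequence, the motifs were chosen with these results in view, and no test was made of them.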

How the data were processed

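RNA was sequenced from 9 tumors, 3 per group, with groups taken from the sample labels. The deposited values are FPKM per gene, 1 Cufflinks table per tumor, which the authors made from transcripts assembled in each tumor on its own. The submitters' processing notes name TopHat2 2.1.1, Bowtie2 2.2.4 and the build mm8, but coordinates in the tables were not used because their build could not be settled. A deposited table of the authors' Cuffdiff comparisons (group values, fold changes, p-values and q-values) was not used. Read totals are not given. Low values put the relative depth of the tumors at 0.936 to 1.07 of PBS tumor 1, but only 6.63% to 13.8% of the entries compared gave that value, so depth is known only roughly.

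FPKM was summed per gene and tumor. Genes sharing an entry in any tumor were joined into a locus, 19 names found on several chromosomes were not joined, and 7 loci with a failed estimate were left out. Groups were compared on log2(FPKM + 1), so folds of low genes are understated, with limma 3.58.1 (R 4.3.3; eBayes with a mean trend) on the 6 tumors of a comparison and on all loci that reached FPKM 1 in 3 or more of them, with Benjamini-Hochberg adjustment. "Higher" and "lower" with a count mean an unadjusted p under 0.05. The script was tested on simulated data. Summaries and exact permutation tests used Python 3.11.15 with SciPy 1.17.1, and promoter windows came from a RefSeq table. The named loci were the 8 most abundant, the 5 largest increases and decreases per comparison among those past the threshold, the most abundant of each role and a list of well-known genes. Other loci are given where a result turns on them and were chosen after their values were seen. The members, lists and tests were chosen with earlier results of these data known. Each tumor is 1 mouse. Alternatives tried were upper-quartile scaling, a pseudocount of 0.1, no filter, a filter at FPKM 5, all 9 tumors in 1 fit, the hepatocyte covariate, a replicate block, per-gene sums, unmoderated variances and leaving out each tumor.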

Additional observations from a re-analysis of the deposited data

How the results depend on the processing

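The count of P450 loci higher in responsive than in nonresponsive tumors, 23, was 11 with all 9 tumors in 1 fit, 14 with unmoderated variances, 10 with the hepatocyte covariate and 9 to 28 when 1 tumor was left out. Over all loci the higher count of 555 was 439, 384, 367 and 209 to 943 in the same fits. The count of lower loci was 1 with that covariate, where 875 of all 12716 loci were lower. The median of 1.06 became 0.16 with the covariate and 0.78 to 1.47 with 1 tumor left out. Against PBS the 31 higher loci became 2 with the covariate, 17 with unmoderated variances and 16 to 31 with 1 tumor left out. Over all loci the 1159 higher became 129, 846 and 620 to 1301. The count of lower loci was 1 without a filter, 1 with a filter at FPKM 5 and 0 to 2 with 1 tumor left out, the 2 without responsive tumor 2. Over all loci it was 1531 of 22805, 1013 of 9528 and 387 to 2779 of 12715, the 2779 without responsive tumor 2. The median of 2.02 became 0.83 without a filter, 0.081 with the covariate and 1.50 to 2.32 with 1 tumor left out. Between nonresponsive and PBS tumors, where 0 loci passed, the higher count was 0 to 2 with 1 tumor left out (2 without nonresponsive tumor 3, 1 without PBS tumor 2, 2 without PBS tumor 3). Over all loci the 199 higher became 748, 223 and 162 in those fits. The lower count was 2 without a filter and 1 with the covariate, and over all loci 443 of 22756 and 133 of 12663. The median of 0.81 turned to -0.074 with the covariate and was 0.27 to 1.21 with 1 tumor left out. Without a filter more genes near 0 enter each median; the cause of the other shifts was not tested.

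The direction turned for 17 named differences, all with the hepatocyte covariate. Between responsive and nonresponsive tumors these were Cyp3a11 with Cyp3a16 (-0.56), Cyp2d12 with Cyp2d9 (-0.17), Cyp1a2 (-0.044), Cyp2c70 (-0.27), Cyp20a1 (0.018), Cyp7a1 (-0.22) and Cyp51 (-0.030). Against PBS they were Cyp2e1 (-0.096), Cyp3a11 with Cyp3a16 (-0.74), Cyp2d12 with Cyp2d9 (-0.21), Cyp1a2 (-0.16), Cyp2c29 (-0.12), Cyp27a1 (-0.045), Cyp20a1 (0.039), Cyp2r1 (-0.24), Cyp1b1 (-1.07) and Cyp7a1 (-0.090).

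The labels number the tumors 1 to 3 in every group. Same-numbered tumors did not deviate together in all pairs (correlations of -0.50 to 0.64), so the numbers were not used to pair them. The highest correlation of any pair, 0.64, was that of nonresponsive tumor 1 with responsive tumor 1. Deviations were taken from means of only 3 tumors, and whether same-numbered tumors shared a batch was not tested. With a replicate block the counts of higher loci were 25, 25 and 0 in the 3 comparisons (744, 689 and 113 over all loci). Not every tumor correlated best with its own number. With 3 tumors a group, no exact permutation p can go under 0.1.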
